A study of Mus musculus with 24 samples.

Results

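Crnn, Muc16 and Rgs6 are 3 mouse loci at which Cdx2 was called on chromatin in distal colon organoids and not, at the strongest positions, in proximal colon organoids. A peak was counted for a locus when its summit lay in the gene body or within 50 kb to either side, on mm10 with GENCODE vM21. These windows held 63 of the 206283 peaks in the 12 Cdx2 peak lists. Peaks of different libraries that overlapped were merged, which gave 20 of the 61454 regions of the series, 3 at Crnn, 3 at Muc16 and 14 at Rgs6. The loci were chosen by which libraries had called them and by fold percentile, so the difference between distal and proximal libraries is described below and was not tested.

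Cdx2 was mapped by ChIPmentation, in which immunoprecipitated chromatin receives its sequencing adapters from a transposase on the beads. The 12 libraries came from organoids of the proximal or the distal colon, grown in WENR-plus medium (Wnt3a, EGF, Noggin and R-spondin-1) or in WENR-minus medium, which lacks these factors. Each site was grown in both media, which makes 4 groups of 3 libraries. The study derived the proximal and the distal organoids from 3 independent mice aged 2 months. The 6 libraries of a site are therefore 3 mice in 2 media, and an SD at n = 6 counts libraries, not mice. The cultures were 4 months old in WENR-plus medium, and those of the WENR-minus groups were plated in it for 2 days before 3 days without the factors. All groups carried a heterozygous Cre-inducible BrafV600E allele and a heterozygous tdTomato reporter, and the labels name the medium as the treatment and no Cre. RNA was not measured in these libraries, so the tissue label was checked on binding alone. Around the colon epithelium genes Car1, Krt20, Vil1 and Cdh17, 23 regions were called in 2 or more libraries and 6 of them in all 12. Of the 35518 regions of 2 or more libraries in the series, 2079 were called in all 12. Of the 23, 1 (4.35%) was called in more distal libraries and 15 (65.2%) in more proximal libraries. Over all such regions these shares were 5.89% and 76.3%. Regions called in all 12 libraries bear on the tissue and not on the site within the colon.

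Cdx2 is a homeobox transcription factor that maintains the identity of the intestinal epithelium and binds AT-rich sites, most of them away from promoters. Crnn encodes cornulin, a protein of differentiating squamous epithelium whose gene sits in the epidermal differentiation complex beside the filaggrin genes. Muc16 encodes a very large membrane-bound mucin of wet epithelial surfaces. Rgs6 encodes a member of the R7 family of regulators of G protein signalling, which shorten the signal of inhibitory G proteins and are stabilised by the G protein subunit made from Gnb5.

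The summit sequences of the regions on which the comparison turns are shown first. Within 50 bp of the summit, the strongest distal sites did not hold the motif form searched here, which most Cdx2 regions held. Their nearest copy lay 56 bp away at Crnn, 110 bp at Muc16, and 308 and 59 bp at the Rgs6 sites. Each sequence is 101 bases of the mm10 plus strand centred on the median summit. Capitals mark the Cdx2 motif as searched here, the letters TTTAT followed by G or T and then by A or G, or the same read on the other strand, where it ends in ATAAA. Regions are named by the distance of the summit from the annotated gene start in the direction of transcription. The first 4 were called in all 6 distal libraries and no proximal library, the next 2 in 2 and 4 distal libraries and no proximal library, and the last 2 in more proximal than distal libraries.
Crnn +17.9 kb, chr3:93162631-93162731: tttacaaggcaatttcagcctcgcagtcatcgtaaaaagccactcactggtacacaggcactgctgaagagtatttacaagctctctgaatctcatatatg
Muc16 +113.2 kb, chr9:18561267-18561367: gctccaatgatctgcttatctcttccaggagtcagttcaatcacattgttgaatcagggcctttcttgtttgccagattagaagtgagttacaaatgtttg
Rgs6 +260.5 kb, chr12:82848709-82848809: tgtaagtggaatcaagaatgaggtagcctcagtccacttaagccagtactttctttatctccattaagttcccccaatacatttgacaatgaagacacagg
Rgs6 +261.4 kb, chr12:82849670-82849770: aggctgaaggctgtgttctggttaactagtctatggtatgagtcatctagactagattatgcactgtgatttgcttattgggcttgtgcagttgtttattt
Muc16 +118.7 kb, chr9:18555743-18555843: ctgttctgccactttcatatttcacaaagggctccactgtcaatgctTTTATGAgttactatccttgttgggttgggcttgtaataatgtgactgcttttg
Rgs6 +318.4 kb, chr12:82906686-82906786: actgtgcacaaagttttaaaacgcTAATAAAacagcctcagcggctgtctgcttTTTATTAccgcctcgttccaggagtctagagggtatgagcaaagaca
Rgs6 +412.8 kb, chr12:83001085-83001185: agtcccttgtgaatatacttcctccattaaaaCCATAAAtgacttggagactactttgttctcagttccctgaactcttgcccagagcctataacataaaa
Crnn +12.7 kb, chr3:93157452-93157552: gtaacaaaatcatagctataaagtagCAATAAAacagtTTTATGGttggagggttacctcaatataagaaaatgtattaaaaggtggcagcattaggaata

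Call rates differed between the sites in the other direction over the genome. The proximal lists held 11409 to 42192 peaks and the distal lists 5608 to 21040. Over all regions, 34 of 61454 (0.0553%) were called in all 6 distal and no proximal library. Of the 35518 regions that 2 or more libraries had, 2093 (5.89%) were called in more distal than proximal libraries and 27104 (76.3%) in more proximal than distal libraries. At the 2079 regions called in all 12 libraries, the median fold enrichment over input ran from 9.91 to 13.2 in proximal libraries and from 7.89 to 10.3 in distal libraries. In the 3 windows 4 of the 20 regions were called in every distal and no proximal library. Of the 13 window regions that 2 or more libraries had, 7 were called in more distal than proximal libraries, 3 in more proximal libraries and 3 in equal numbers. The remaining 7 regions had a single library, which was proximal for 6 of them and distal for 1.

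**Figure D1:**
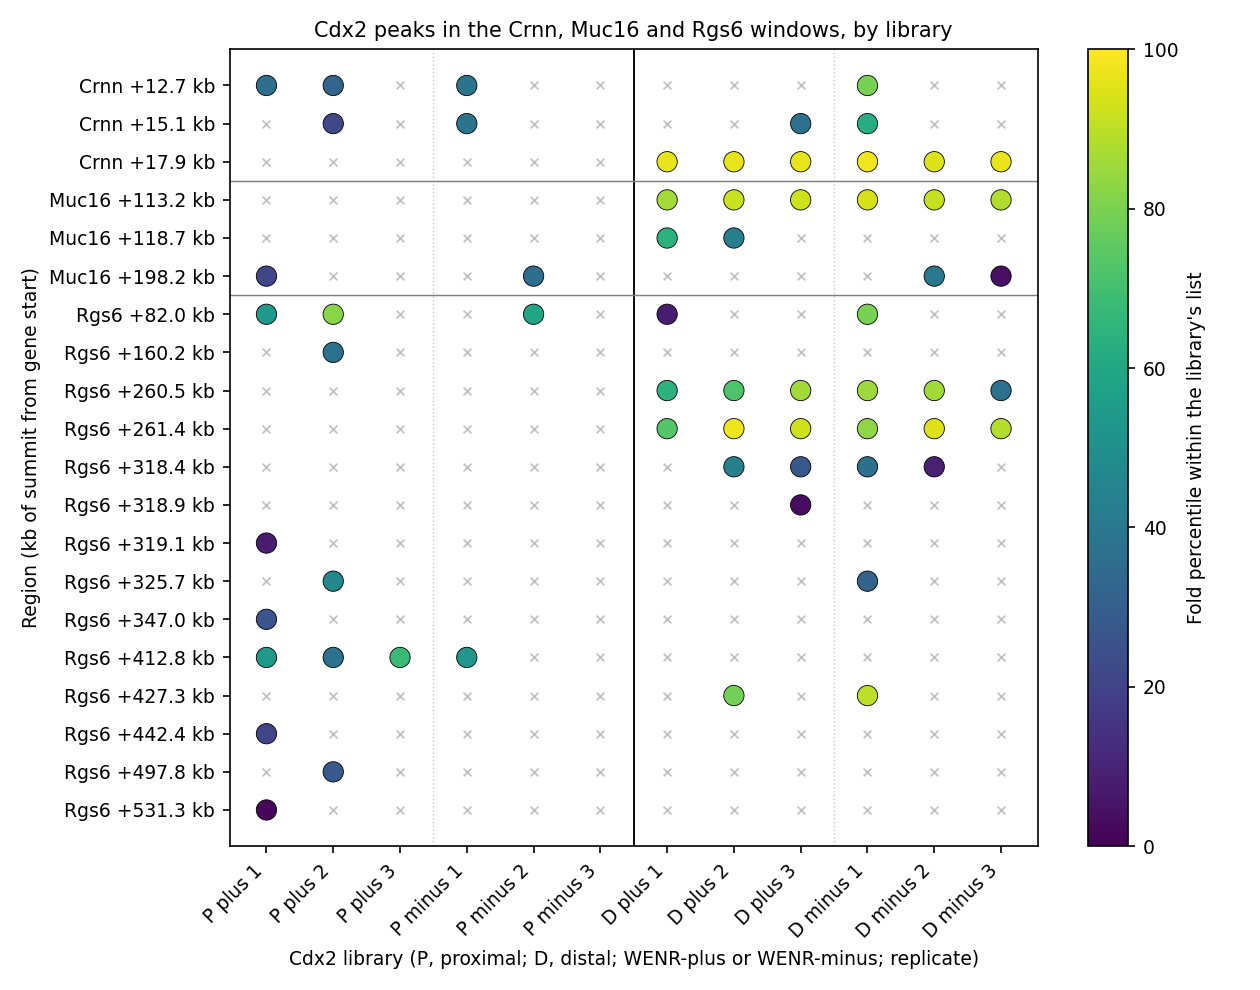
Each row is 1 of the 20 regions of the Crnn, Muc16 and Rgs6 windows, named by kb of the summit from the gene start, and each column 1 of the 12 Cdx2 libraries (P, proximal; D, distal). A filled circle is a called peak coloured by its fold percentile within that library's list (0 to 100) and a cross is no call; the rows Crnn +17.9 kb, Muc16 +113.2 kb, Rgs6 +260.5 kb and Rgs6 +261.4 kb hold 6 distal circles and 0 proximal circles.

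The Crnn site was the strongest of the 4. It spans chr3:93162287-93163232, intergenic sequence past the 3′ end of Crnn (chr3:93144787-93149819, plus strand, ENSMUSG00000078657.6), 17.9 kb from the gene start. Its fold enrichment was 13.7, 14.1 and 14.5 in distal WENR-plus libraries 1, 2 and 3. In distal WENR-minus libraries 1, 2 and 3 it was 14.2, 11.4 and 14.8. Both media gave overlapping values, and the 6 distal folds averaged 13.8 ± 1.22 (SD, n = 6 libraries of 3 mice). Fold percentile is the rank of a peak's fold in its library's list, counted from the smallest, as a percentage with ties averaged. The site ranked high in every distal list, because its fold percentile ran from 94.8 to 97.9. By q-value it was peak 225 to 517 of the list, counted from the strongest. The 6 summits fell within 99 bp of each other. No proximal list held a peak overlapping it.

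The Muc16 site lies inside the gene. It spans chr9:18560925-18561728 in an intron of Muc16 (chr9:18495455-18674530, minus strand, ENSMUSG00000109564.1), 113.2 kb downstream of the gene start. Its fold enrichment was 9.68, 11.1 and 11.9 in distal WENR-plus libraries 1, 2 and 3. In distal WENR-minus libraries 1, 2 and 3 it was 10.3, 9.86 and 9.84. These 6 values averaged 10.5 ± 0.894 (SD, n = 6 libraries of 3 mice) and their fold percentiles ran from 86.7 to 93.4. The spread between libraries was small, and again no proximal list held a peak there. The 6 summits fell within 180 bp.

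Rgs6 held a pair of such sites in an intron, with median summits 961 bp apart. They count as separate regions because their peaks do not overlap, and whether they form a single broad bound interval was not tested. The stronger spans chr12:82849425-82850033, 261.4 kb from the start of Rgs6 (chr12:82588292-83162056, plus strand, ENSMUSG00000021219.16). Its fold enrichment was 7.75, 15.6 and 11.9 in distal WENR-plus libraries 1, 2 and 3. In distal WENR-minus libraries 1, 2 and 3 it was 7.53, 11.4 and 9.93. These values scattered more than at Crnn or Muc16, with a mean of 10.7 ± 3.03 (SD, n = 6 libraries of 3 mice). Their fold percentiles ran from 73.3 to 97.6. The second spans chr12:82848243-82849298 at 260.5 kb, with folds of 7.05, 7.55 and 10.04 in distal WENR-plus and of 8.03, 8.68 and 5.38 in distal WENR-minus libraries 1, 2 and 3. Its fold percentiles ran from 37.8 in distal WENR-minus 3 to 86.1 in distal WENR-plus 3, so it stood near the middle of one list and high in others. Its summits were spread over 418 bp, against 100 bp at the stronger member of the pair.

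The peak lists give no value where nothing was called, so from the lists the level at these sites in proximal organoids is bounded by what each list could call. Signal tracks were not used here. MACS2 folds and p-values fix the number of reads piled up at each summit. Distal pileups were 28 to 50 reads at Crnn, 24 to 31 at Muc16, 19 to 37 at the stronger Rgs6 site and 15 to 25 at the weaker. The lowest pileup called at the genome background was 9 to 11 reads in the proximal lists, which corresponds to a fold of 3.22 to 3.91. At that background, any proximal pileup at Crnn or Muc16 that went uncalled lay below the lowest distal pileup there, and a higher local background would raise that limit. The highest fold that any proximal library had anywhere in the 3 windows was 7.83, and the 21 proximal calls had a median fold of 4.70. Relative to the median fold of the same library at the 2079 shared regions, the distal calls stood at 1.37 to 1.72 at Crnn and 1.08 to 1.40 at Muc16. They stood at 0.805 to 1.52 and 0.615 to 1.18 at the Rgs6 pair. Proximal calls in the windows stood at 0.278 to 0.667.

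**Figure D2:**
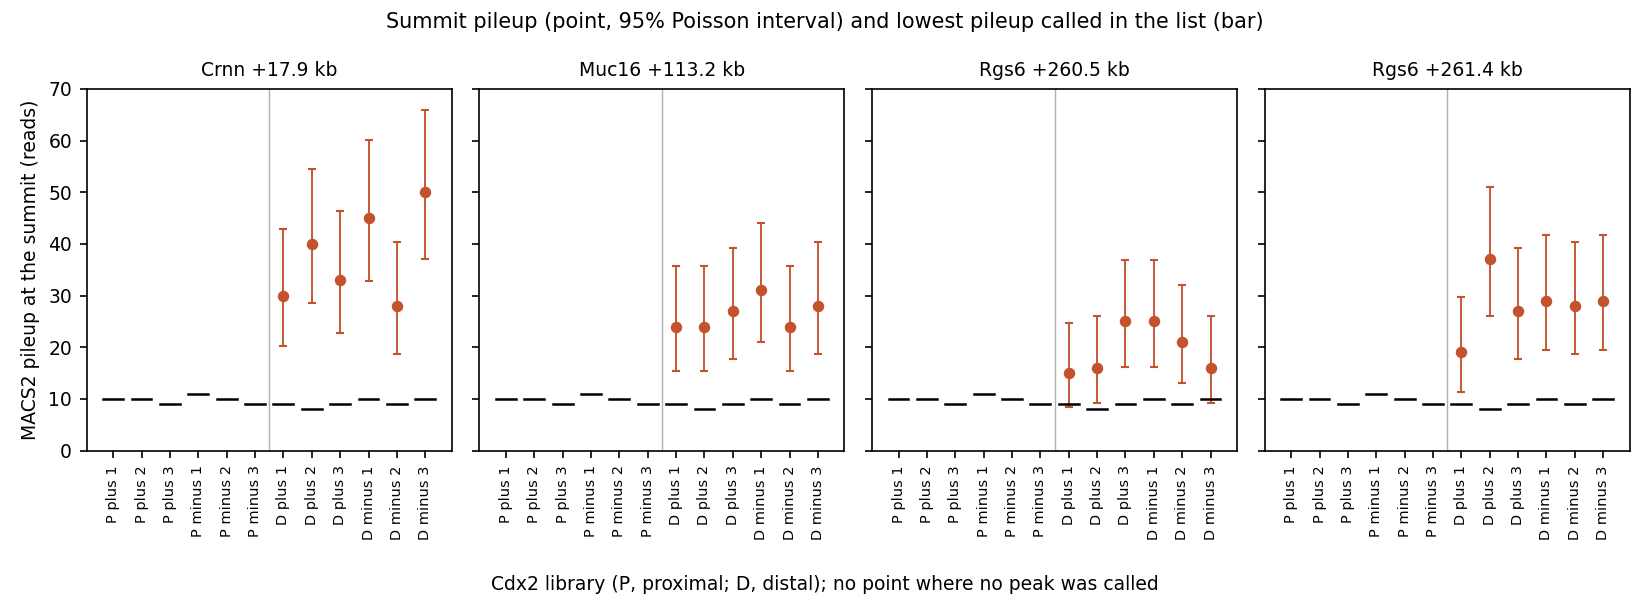
Reads piled up at the summit (y axis, reads) in each of the 12 libraries (x axis; P, proximal; D, distal) at the 4 regions called in every distal library; points are called peaks with 95% Poisson intervals for counting error, black bars the lowest pileup called at background in that list. Distal points run from 15 to 50 reads, the proximal bars stand at 9 to 11 reads, and no proximal library has a point.

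By the number of libraries, neighbouring sites shared the distal lean at Muc16 and in the Rgs6 pair, and not at Crnn. At Muc16 this rests on 1 neighbour called in 2 distal libraries. Each Rgs6 site had only the other as its neighbour, and the loci were chosen by such calls. The Crnn site had 2 neighbours of 2 or more libraries within 50 kb. The region at +12.7 kb, chr3:93157349-93157637, was called in 3 proximal libraries with folds of 4.75, 4.40 and 4.57 and in distal WENR-minus 1 with a fold of 7.101. All of its 101 summit bases are repeat-masked. The region at +15.1 kb, chr3:93159777-93160130, was called in 2 proximal libraries (4.16 and 4.57) and 2 distal libraries (5.97 and 5.81). These lie 5.18 and 2.80 kb from the distal site, in the same intergenic stretch, so calls of opposite balance stood within a few kb of each other. Both neighbours stayed below the distal site in fold. By fold percentile, the distal call at +12.7 kb stood at 79.4, against 31.8 to 38.1 in the proximal libraries. At +15.1 kb the distal calls stood at 37.1 and 62.4 and the proximal calls at 21.7 and 38.1. With lists of equal length, no window region of 2 or more libraries was called in more proximal than distal libraries. At Rgs6 +412.8 kb the call of proximal WENR-plus 3, ranked 4468 by q-value, remained among the 5608 peaks kept per list.

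The neighbour of the Muc16 site, 5.52 kb further into the gene at +118.7 kb (chr9:18555677-18555957), was called in distal WENR-plus libraries 1 and 2 with folds of 7.05 and 5.77 and in no other library. The third region of the window, at +198.2 kb (chr9:18476180-18476430), lies past the 3′ end of Muc16 at the promoter of Zfp558, a zinc finger gene. Proximal WENR-plus 1 and WENR-minus 2 had it at folds of 4.35 and 5.31, and distal WENR-minus 2 and 3 at 5.52 and 3.84. Binding there was weak and evenly divided between the sites.

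Along Rgs6 the balance in number of libraries, taken over the full lists, changed from place to place. The region at +318.4 kb (chr12:82906608-82907006) was called in 4 distal and no proximal libraries, with folds from 4.34 to 5.77. The region at +427.3 kb (chr12:83015320-83015736) was called in distal WENR-plus 2 and WENR-minus 1, with folds of 8.23 and 9.04. Between them, the region at +412.8 kb (chr12:83000960-83001337) was called in 4 proximal and no distal libraries. Its folds were 5.39, 4.70 and 7.83 in proximal WENR-plus libraries 1, 2 and 3 and 5.10 in proximal WENR-minus 1. It lies 14.46 kb from the distal region at +427.3 kb. At +82.0 kb 3 proximal libraries (5.39, 7.71 and 6.37) and 2 distal libraries (4.65 and 7.101) had a peak, and at +325.7 kb 1 of each (5.02 and 4.63). The 7 regions of a single library were all in the Rgs6 window. The 6 proximal ones came from proximal WENR-plus 1 or 2, which have the 2 longest lists, with folds from 3.38 to 4.70. The distal one had a fold of 4.17.

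**Figure D3:**
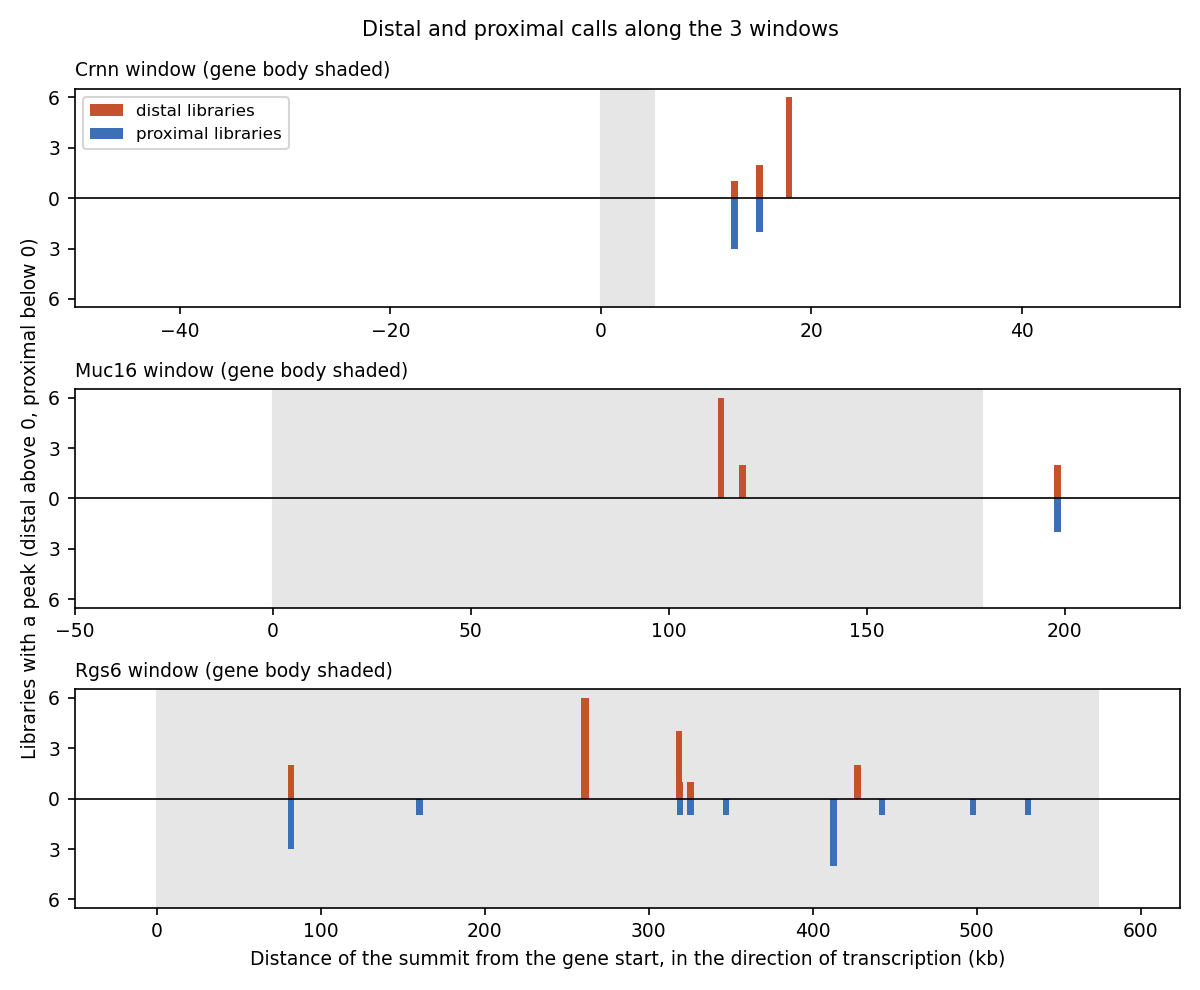
Number of distal (red, above 0) and proximal (blue, below 0) libraries with a peak at each region (y axis, libraries) against the distance of its summit from the gene start in kb (x axis), with the gene body shaded; at this scale the Rgs6 regions at 260.5 and 261.4 kb, and those at 318.4, 318.9 and 319.1 kb, are drawn over each other. The tallest distal bars reach 6 libraries and the tallest proximal bar, in Rgs6, reaches 4.

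The same question can be put to all 34 regions called in every distal and no proximal library. Of the 30 outside these windows, 20 had a neighbour of 2 or more libraries within 50 kb, and 9 had one that was called in more distal than proximal libraries. Of their 74 neighbours, 13 (17.6%) were called in more distal libraries and 37 (50%) in more proximal libraries. Of the 5 neighbours of the 4 sites described here, 3 were called in more distal libraries and 1 in more proximal libraries, and 2 of these 3 are the Rgs6 pair counted from each side. Ordered by mean fold percentile over the distal libraries, the Crnn, Muc16 and stronger Rgs6 sites came 1st, 2nd and 3rd of the 34 with 96.5, 90.7 and 88.3. The weaker Rgs6 site came 11th with 71.8. The median of the 34 was 61.5. The loci were chosen by these calls and by fold percentile, so this order largely restates the choice and is not a separate result.

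**Figure D4:**
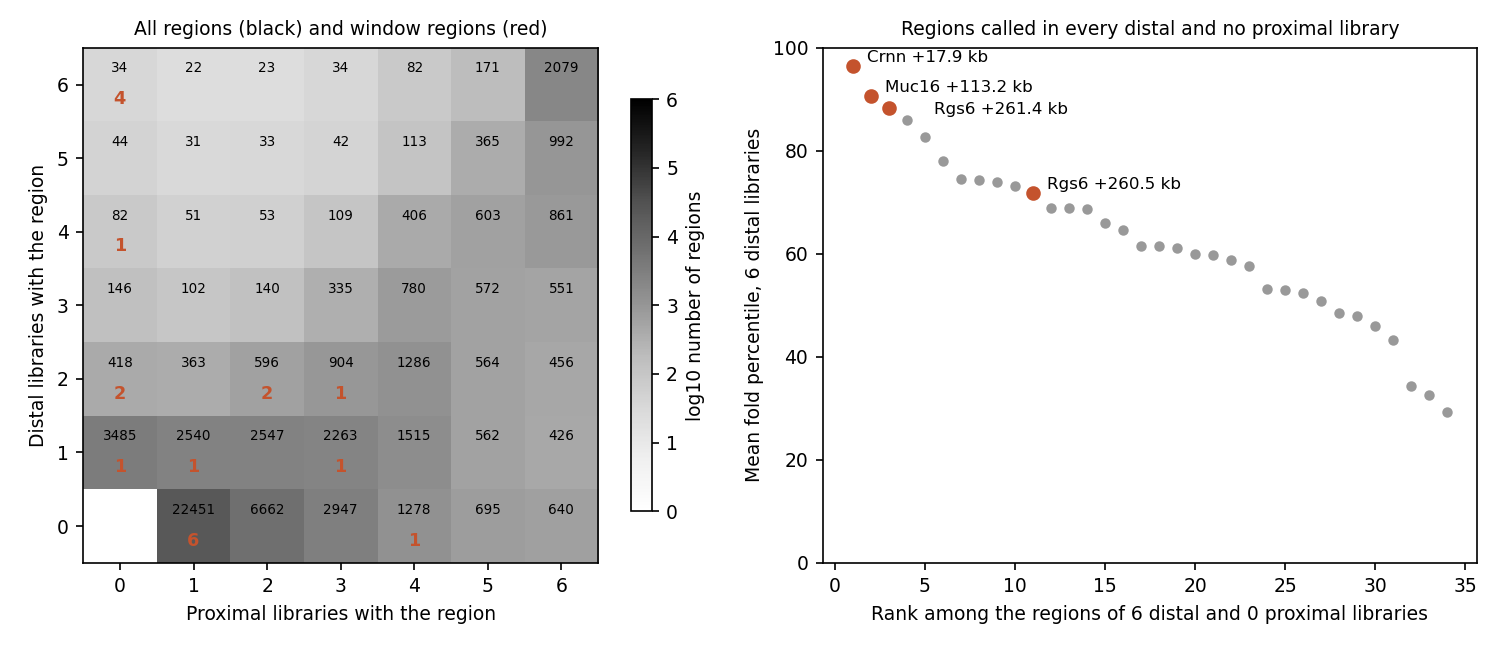
Left, the number of regions by how many proximal (x axis) and distal (y axis) libraries called them, shaded on a log10 scale, with all regions in black and window regions in red; right, the mean fold percentile over the 6 distal libraries (y axis, 0 to 100) of the 34 regions of 6 distal and 0 proximal libraries, in rank order (x axis). The upper left cell holds 34 regions, 4 of them in the windows, and the red points stand at ranks 1, 2, 3 and 11. The loci were chosen by calls and fold percentile, which are the values drawn here.

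No region of the windows lay within 3 kb of an annotated transcript start of Crnn, Muc16 or Rgs6. The region nearest to the start of the gene was 12.7 kb from that of Crnn, 113.2 kb from that of Muc16 and 82.0 kb from that of Rgs6. Counted from the closest start of any annotated transcript of these genes, the distances were 9.29 kb for Crnn, 42.9 kb for Muc16 and 3.38 kb for Rgs6, the last at the +531.3 kb region of 1 proximal library. The 4 distal sites lay 14.5 kb (Crnn), 48.4 kb (Muc16), and 196.9 and 197.3 kb (Rgs6) from such a start. No region of the 3 windows was called in all 12 libraries. The RefSeq promoters of the 3 genes (GRCm38, 300 bases each) matched the genome sequence and held no Cdx2 motif, which 14.4% of 32851 RefSeq promoters held. Just outside the windows, the nearest region was 47.5 kb beyond the Crnn window (5 proximal and 3 distal libraries), 33.0 kb beyond the Muc16 window (1 proximal library) and 71.2 kb beyond the Rgs6 window (1 proximal library). The regions just inside an edge were the Crnn site itself (37.1 kb inside), the Zfp558 region of the Muc16 window (30.9 kb inside) and a region of 1 proximal library in the Rgs6 window (92.5 kb inside).

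The motif was not part of the choice of the loci. Within 50 bp of the summit, 11 of the 20 window regions held it (55.0%, 95% Wilson interval 34.2% to 74.2%), against 66.8% of the 35518 regions of 2 or more libraries. Within 100 bp the shares were 85.0% and 83.3%, so the windows then stood close to the wider share. The window shares include the 7 regions of a single library, and the wider shares leave such regions out. Of the 13 window regions of 2 or more libraries, 7 held the motif within 50 bp. None of the 4 regions of 6 distal libraries held it within 50 bp, as their sequences above show. Their nearest copy lay 56 bp from the summit at Crnn, 110 bp at Muc16, and 308 and 59 bp at the weaker and stronger Rgs6 sites. Both Rgs6 sites held the shorter core TTTAT within 50 bp, and the Crnn and Muc16 sites did not. Of the other 9 window regions of 2 or more libraries, 7 held the full motif within 50 bp. The Muc16 neighbour at +118.7 kb had a copy at the summit itself and the Rgs6 region at +318.4 kb had 2, 7 and 23 bp away. The proximal Rgs6 region at +412.8 kb had a copy 15 bp from its summit. The base composition of the 4 sites was 39.6% to 42.6% GC in the 101 bases, against a median of 34.7% over all regions of 2 or more libraries, and none of these bases was repeat-masked.

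Other motifs were looked for in the same bases on both strands. AGATAA, the core bound by GATA factors, was present at Muc16 +113.2 kb and Rgs6 +260.5 kb, and in 10.2% of all regions of 2 or more libraries. TGANTCA is wider than the AP-1 site, which is TGAGTCA or TGACTCA. It was present at Muc16 +113.2 kb, as TGAATCA, and at Rgs6 +261.4 kb, as TGAGTCA, and in 7.46% of all such regions. TGTTTAC, a forkhead core, and GGAATG, the TEAD core, were in none of the 4 sites and in 2.87% and 6.27% of all such regions. The Crnn site held none of the 5 motifs in its 101 bases. Factors other than Cdx2 were not measured in these libraries.

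The medium was a comparison that the choice of loci had not used. At the Crnn site the fold percentile was 96.4 ± 0.017 (SD, n = 3) in distal WENR-plus and 96.5 ± 1.55 (SD, n = 3) in distal WENR-minus libraries, a difference of -0.127 (two-sided exact permutation test, p = 1). At the Muc16 site the values were 90.4 ± 3.24 and 90.9 ± 2.52 (SD, n = 3 each), a difference of -0.519 (exact permutation p = 0.8). At the stronger Rgs6 site they were 87.8 ± 12.8 and 88.9 ± 5.84 (SD, n = 3 each), a difference of -1.04 (exact permutation p = 0.9). Each difference was smaller than the SD of the WENR-minus libraries, and at Muc16 and Rgs6 also than that of the WENR-plus libraries, whose values at Crnn lay very close together. With 3 libraries against 3 the smallest p this test can give is 0.1, so no call was possible.

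The number of window regions a library had was 8, 7 and 1 in proximal WENR-plus libraries 1, 2 and 3 and 3, 2 and 0 in proximal WENR-minus libraries. It was 6, 7 and 7 in distal WENR-plus libraries and 10, 6 and 5 in distal WENR-minus libraries. Proximal numbers moved with the length of the list, from 0 in the list of 11409 peaks to 7 and 8 in those of 42192 and 32033 peaks. Over both sites the mean was 6.00 ± 2.53 in WENR-plus and 4.33 ± 3.50 in WENR-minus libraries (SD, n = 6 each), a difference of 1.67. With the medium permuted within each site this gave p = 0.315 (two-sided exact permutation test, 400 labelings). The difference shrank to 0.333 with lists of equal length (p = 0.7, same exact test) and to 1.00 when replicate 2 was left out (p = 0.722, same exact test). The media were therefore not distinguished in the windows.

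The regions most like each lead site over the 12 libraries were found by Pearson's r of fold percentile, set to 0 where a library had no call, among 19894 regions of 4 or more libraries. This measure is mostly one of which libraries made a call, and the points share library depth, so it is given without a test. The region most like the Crnn site was chr9:57999175-57999983 (r = 1.00), 6.9 kb from the start of Cyp11a1, which encodes the enzyme that starts steroid hormone synthesis. Its folds were 11.04 to 14.5 in the 6 distal libraries and 3.58 in proximal WENR-plus 3, its single proximal call. The Muc16 site was second (r = 0.999). The third, chr3:19605297-19606328 (r = 0.996), lies 22.7 kb from 1700064H15Rik, with folds of 7.11 to 9.27 in distal libraries and calls at 3.81 and 3.18 in 2 proximal libraries. The Muc16 and Rgs6 sites had the Crnn site and the Cyp11a1 region among their 3 most alike (r = 0.989 to 0.999).

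Other genes of the same families were taken with the same windows. In the epidermal differentiation complex, 55 genes that include the filaggrins, loricrin and the small proline-rich proteins, 54 regions of 2 or more libraries were found. Of these, 11 (20.4%) were called in more distal libraries and 35 (64.8%) in more proximal libraries, and without the Crnn window 10 of 51 (19.6%) were called in more distal libraries. Of the 11 regions, 8 lay in the windows of the closely related Sprr2a genes. Reads there may not be placed with certainty, which was not measured. A second region of 6 distal and 0 proximal libraries, chr3:92090982-92091614, lies 8.1 kb from the start of Lor, which encodes loricrin of the cornified envelope, and 1071 kb from the Crnn site. Its folds were 8.38, 9.33 and 8.53 in distal WENR-plus and 8.39, 5.92 and 6.40 in distal WENR-minus libraries 1, 2 and 3. The other region outside the Crnn and Sprr2a windows, near Lce3e, was called in 2 distal libraries. Flg2, whose window reaches the Crnn site, shares it, and Flg had a single region called in 5 proximal and 3 distal libraries.

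The other transmembrane mucins stood close to the shares over all regions. Around the 7 of 9 listed genes that the annotation holds, 1 of 14 regions (7.14%) was called in more distal libraries and 10 (71.4%) in more proximal libraries. The 1 region lies at Muc13, a mucin of the gut surface, and was called in 2 distal libraries and 1 proximal library. The region shared by Muc3 and Muc3a, chr5:137193245-137194229, was called in all 12 libraries. Around Rgs7, Rgs9, Rgs11, Gnb5, Rgs7bp and Rgs9bp, the R7 relatives and partners of Rgs6, 0 of 12 regions were called in more distal libraries and 10 (83.3%) in more proximal libraries. Over all regions of 2 or more libraries these shares were 5.89% and 76.3%.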

How the data were processed

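Cdx2 ChIPmentation peaks of 12 libraries (mm10) were analysed, and the 12 input libraries were not analysed here. Per the submitters' processing notes, the authors used Trimmomatic 0.39, Bowtie2 2.4.5, SAMtools 1.13 and MACS2 2.2.7.1, where the study's supplement names other versions of the last 3. Per its methods, duplicates were deleted and peaks were called per library against its input at a q-value limit of 0.01. The deposited lists give the score, the fold (a ratio of summit pileup to input background, 1 added to both), the −log10 p-value and the −log10 q-value. The lists hold no read totals, and those stated in the study's supplement were not used. Pileups were solved from the deposited fold and p-value (99.7% to 99.97% of a list, within 0.002 on the −log10 scale). Peaks of unplaced contigs and chrM (1024, 0.494%) were left out. Peaks overlapping by 1 bp were merged, and a library's value at a region is its peak of largest fold. Named were all window regions of 2 or more libraries. Each gene's lead region had the largest distal minus proximal number of libraries, ties by mean distal fold percentile. Related genes were named where a count turned on them. Tests were exact permutations (Python 3.11.15, scipy 1.17.1), checked on simulated data. Intervals cover counting error only. Members and gene lists were chosen with earlier results of these data known. p-values measure the spread between these libraries.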

Additional observations from a re-analysis of the deposited data

How the results depend on the processing

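At each of the 3 lead sites the 6 distal and 0 proximal calls were found with lists of equal length (the 5608 strongest peaks), at a −log10 q of at least 5, and with summits merged within 150 bp, and without any replicate number the difference was 4 of 4 libraries. With lists of equal length the mean distal fold percentile was 93.9 at Crnn, 83.7 at Muc16 and 77.5 at Rgs6. At a −log10 q of at least 5 it was 95.1 at Crnn, 87.0 at Muc16 and 83.7 at Rgs6. With the full lists it was 88.3 at Rgs6, and ran there from 84.4 to 93.4 when 1 replicate number was left out. Among window regions of 2 or more libraries, the number called in more proximal libraries was 0 with lists of equal length. It was 2 to 5 when 1 replicate number was left out (5 without replicate 3), against 3 with the full lists. The share of window regions with the Cdx2 motif, single-library regions included, was 85.0% within 100 bp of the summit and 75.0% for the core TTTAT. Over all regions of 2 or more libraries, without single-library regions, the shares were 83.3% and 81.1%. The WENR-plus minus WENR-minus difference in fold percentile changed sign with lists of equal length (0.912 at Crnn, 3.28 at Muc16 and 12.8 at Rgs6) and, at Muc16, by −log10 q percentile (0.238). When 1 replicate number was left out it ran from -0.982 to 0.550 at Crnn, -2.86 to 2.58 at Muc16 and -3.52 to 3.37 at Rgs6. The cause of these changes was not tested. The labels do not say that a replicate number marks 1 mouse, and same-numbered libraries of one site correlated at -0.017 to 0.298 over regions. In its own principal components, the study found most variation in Cdx2 binding between mouse groups, with an organoid's media tending to cluster. The difference between these 2 measures was not tested. With a replicate block the p-values were 1, 1 and 1 for the fold percentile at the 3 sites, where the smallest possible is 0.25, and 0.281 for the number of regions (difference 1.67), and no call changed. That difference was 0.333 to 2.17 under the other settings and 1.00 to 2.25 when 1 replicate number was left out. Peak lists limit every statement to what was called, and a site without a call can hold binding below the limit of that list.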
